A study of Mus musculus with 9 samples.

Results

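The metallothionein genes Mt1, Mt2 and Mt3, the zinc sensor gene Mtf1 and the zinc exporter gene Slc30a1 are described here in mouse quadriceps muscle. They were chosen by symbol and are 5 of the 13116 genes in the deposited table, and all 5 passed the filter on low values. They were chosen with their levels in these libraries known, so their values are given as a description, with errors and no test. Calls of the fit on them, set beside those of all genes, are a description too. RNA was sequenced from 9 male mice aged 18 months, 1 library per mouse and 3 mice per group. All had received an intravenous injection at 9 months. The KO_secGAA mice lacked Gaa, the gene of lysosomal acid alpha-glucosidase, and had received AAV8-sp7-delta8-hGAAco, a vector that provides transgenic secGAA, a secretable form of the human enzyme. The KO_PBS mice lacked Gaa and had received PBS. The WT_PBS mice were wild type and had received PBS. The series title places expression of the transgene in the liver. KO_PBS against WT_PBS shows the muscle that lacks the enzyme, which breaks down glycogen in lysosomes and is lost in Pompe disease. KO_secGAA against KO_PBS shows what differed after the vector, and KO_secGAA against WT_PBS what still differed from wild type. Each pair of these comparisons shares the libraries of 1 group.

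Metallothioneins are small proteins rich in cysteine that bind zinc and copper and can also take up reactive oxygen species. Mt1 and Mt2 are made in most tissues and are induced by metals, glucocorticoids and inflammatory signals, while Mt3 was first described in brain, where it was named growth inhibitory factor. Mtf1 is a transcription factor that senses zinc and binds metal response elements in the promoters of Mt1, Mt2 and Slc30a1. Slc30a1 encodes ZnT1, which moves zinc out of the cell across the plasma membrane. Zinc and copper themselves were not measured.

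The table holds normalized counts, a signal scaled to library size with factors for library composition. Total reads over these genes were 10495715 to 14406655 in KO_secGAA, 9299156 to 14355201 in KO_PBS and 15477523 to 15957106 in WT_PBS. Depending on the library, 1 read was worth 0.0652 to 0.0922 normalized counts, and a count of 3 reads, taken as the limit of detection, 0.196 to 0.276. This limit covers counting error only, since reads without molecular identifiers are not independent molecules. Gaa averaged 15.76 ± 0.783 normalized counts in KO_secGAA, 15.42 ± 2.05 in KO_PBS and 229.6 ± 88.9 in WT_PBS (SD, n = 3 each). Every knockout library was below every wild-type library for this gene. The 10 muscle fibre markers had summed levels of 157516 to 175033 in KO_secGAA, 131151 to 146401 in KO_PBS and 176193 to 206494 in WT_PBS. In bulk tissue, fewer cells of a type and less RNA per cell cannot be told apart. P-values below set a difference of group means against the spread between mice within the groups.

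Mt3, Mt2 and Mt1 lie in this order on the plus strand of chromosome 8 (GRCm38), within 27721 bases from the start of Mt3 to the end of Mt1. Mt3 (ENSMUSG00000031760) spans 94152607 to 94154146, Mt2 (ENSMUSG00000031762) 94172664 to 94173568 and Mt1 (ENSMUSG00000031765) 94179082 to 94180327. Mtf1 (ENSMUSG00000028890) lies on chromosome 4 at 124802104 to 124849800 and Slc30a1 (ENSMUSG00000037434) on chromosome 1 at 191906767 to 191913247. All 5 are annotated as protein coding. The 250 bases before the RefSeq start of 4 of them (GRCm38.p6, plus strand) are printed. They show where the core of the element that Mtf1 binds lies before these annotated starts. Capitals mark the core of the metal response element, TGCACNC or TGCGCNC, on either strand.
Mt1 (chr8:94178839-94179088): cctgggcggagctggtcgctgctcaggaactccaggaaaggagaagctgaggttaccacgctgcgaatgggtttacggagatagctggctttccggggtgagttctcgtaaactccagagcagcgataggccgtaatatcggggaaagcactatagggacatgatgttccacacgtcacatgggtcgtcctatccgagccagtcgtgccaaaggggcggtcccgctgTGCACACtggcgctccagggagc
Mt2 (chr8:94172368-94172617): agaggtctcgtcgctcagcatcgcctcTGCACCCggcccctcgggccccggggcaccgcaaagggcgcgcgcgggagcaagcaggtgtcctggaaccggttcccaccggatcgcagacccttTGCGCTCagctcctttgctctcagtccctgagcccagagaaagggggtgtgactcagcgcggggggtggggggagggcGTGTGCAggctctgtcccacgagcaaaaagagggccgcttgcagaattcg
Mt3 (chr8:94152357-94152606): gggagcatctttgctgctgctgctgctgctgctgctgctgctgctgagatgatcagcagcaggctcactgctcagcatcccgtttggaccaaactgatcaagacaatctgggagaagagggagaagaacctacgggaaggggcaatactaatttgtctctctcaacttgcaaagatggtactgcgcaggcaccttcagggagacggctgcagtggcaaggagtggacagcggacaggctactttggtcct
Slc30a1 (chr1:191906531-191906780): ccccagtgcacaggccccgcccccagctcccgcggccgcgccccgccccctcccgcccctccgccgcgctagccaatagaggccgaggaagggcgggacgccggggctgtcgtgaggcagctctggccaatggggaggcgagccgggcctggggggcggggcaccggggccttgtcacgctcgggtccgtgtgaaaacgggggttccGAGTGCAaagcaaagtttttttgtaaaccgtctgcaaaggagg
The Mt2 window held 3 cores, with first bases at -223, -128 and -50 from the start. The Mt1 window held 1 core at -23 and the Slc30a1 window 1 core at -43. The Mt3 and Mtf1 windows held 0. Of all 32851 RefSeq windows of this length, 21.4% held at least 1 such core and 1.26% held 3 or more. Past the start, still within the 50 bases of sequence at hand, lay 2 further cores in Mt1, 1 in Mt2, 1 in Mt3 and 1 in Slc30a1. Those of Mt1 had first bases at 3 and 21, so the number of cores in a window depends on the annotated start used. The antioxidant response element core TGACNNNGC, on either strand, occurred once each before Mt2 and Slc30a1 and not before the other 3 genes, against 10.2% of all windows. A match is a run of letters, not a shown binding site.

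Mt3 stood apart from the other members in how far its groups lay from each other. Its normalized counts were 14.61, 8.436 and 16.25 in KO_secGAA mice, 87.71, 154.5 and 97.41 in KO_PBS mice and 1.817, 1.44 and 1.221 in WT_PBS mice. All KO_PBS mice were far above all others, and all KO_secGAA mice lay between the other groups, with no overlap. The means were 13.1 ± 4.12, 113.2 ± 36.1 and 1.493 ± 0.301 (SD, n = 3 each). In reads, the WT_PBS libraries held 26, 20 and 16, so Mt3 was low in wild-type muscle but above the limit of 3 reads. On the log2(value + 0.5) scale, which understates changes of low genes, KO_PBS exceeded WT_PBS by 5.80 (SE 0.27, 95% interval 5.20 to 6.40), or 55.7-fold. This was the largest log2 difference of the 13089 genes tested in that comparison. KO_secGAA was below KO_PBS by 3.07 (SE 0.27, 95% interval of the difference -3.67 to -2.47), or 8.40-fold, the second lowest difference of all genes tested. KO_secGAA was still above WT_PBS by 2.73 (95% interval 2.13 to 3.33), or 6.64-fold.

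Mt2, one of the widely expressed metallothioneins, was also highest in KO_PBS. Its normalized counts were 31.93, 34.75 and 37.51 in KO_secGAA mice, 292.2, 194.7 and 108.3 in KO_PBS mice and 52.68, 5.656 and 18.25 in WT_PBS mice. Every KO_PBS mouse was above every mouse of the other groups, while the narrow range of KO_secGAA lay inside the wide range of WT_PBS. The means were 34.73 ± 2.79, 198.4 ± 92.0 and 25.53 ± 24.3 (SD, n = 3 each). KO_PBS exceeded WT_PBS by 3.33 on the log2 scale (SE 0.64, 95% interval 1.91 to 4.75), or 10.04-fold. KO_secGAA was below KO_PBS by 5.23-fold, a log2 difference of -2.39 (95% interval -3.81 to -0.97). Against WT_PBS, KO_secGAA differed by 0.94 (95% interval -0.48 to 2.36), an interval that takes in both no difference and one of more than 2 log2 units.

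Mt1 was likewise highest on average in KO_PBS, with a wider spread. Its normalized counts were 28.25, 46.37 and 31.89 in KO_secGAA mice, 263.5, 132.3 and 67.8 in KO_PBS mice and 72.56, 14.3 and 24.91 in WT_PBS mice. KO_secGAA lay wholly below KO_PBS, but KO_PBS and WT_PBS overlapped, since KO_PBS mouse 3 was below WT_PBS mouse 1. The means were 35.5 ± 9.59, 154.5 ± 99.7 and 37.26 ± 31.0 (SD, n = 3 each). KO_PBS exceeded WT_PBS by 2.15 on the log2 scale (SE 0.58, 95% interval 0.85 to 3.45), or 4.43-fold. KO_secGAA was below KO_PBS by 3.80-fold, a log2 difference of -1.93 (95% interval -3.22 to -0.63). KO_secGAA and WT_PBS differed by 0.22 (95% interval -1.08 to 1.52), with edgeR on the recovered reads by -0.07 and without WT_PBS 2 by -0.29, so no direction is given.

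**Figure D1:**
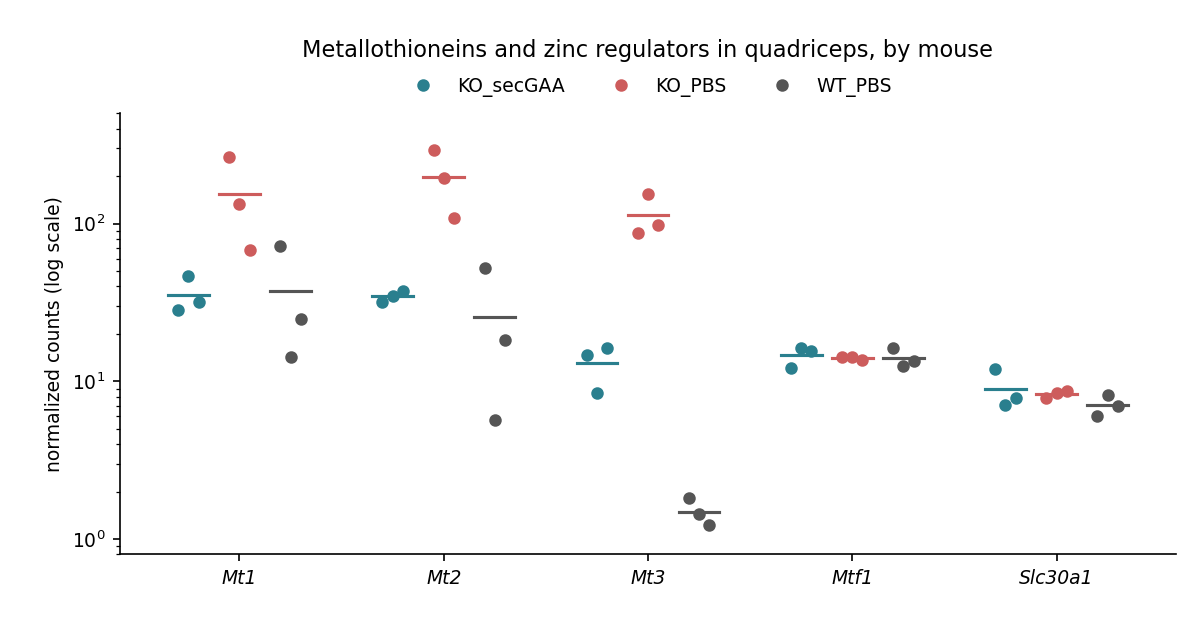
Normalized counts (log axis) of the 5 genes in each of the 9 mice, with points for single mice and horizontal bars for the means of 3 mice. Mt3 falls into 3 separate levels, from 8.436 to 16.25 in KO_secGAA, 87.71 to 154.5 in KO_PBS and 1.221 to 1.817 in WT_PBS, while the Mtf1 and Slc30a1 points of all groups lie close together.

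The zinc sensor Mtf1 was at nearly the same level in all groups. Its normalized counts were 12.12, 16.22 and 15.53 in KO_secGAA mice, 14.25, 14.3 and 13.65 in KO_PBS mice and 16.21, 12.47 and 13.51 in WT_PBS mice. The KO_PBS mice lay inside the range of both other groups. The log2 difference was 0.01 for KO_PBS against WT_PBS (SE 0.14, 95% interval -0.30 to 0.32). It was 0.04 for KO_secGAA against KO_PBS (95% interval -0.27 to 0.35) and 0.05 for KO_secGAA against WT_PBS (95% interval -0.26 to 0.36). Differences of up to 0.36 on the log2 scale are thus within these intervals, and the amount of transcript does not measure the activity of the protein.

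The zinc exporter Slc30a1, a known target of Mtf1, had no difference between groups beyond its spread. Its normalized counts were 11.93, 7.124 and 7.891 in KO_secGAA mice, 7.796, 8.471 and 8.688 in KO_PBS mice and 6.067, 8.185 and 6.995 in WT_PBS mice. The groups overlapped in all 3 comparisons, and KO_secGAA mouse 1 was the highest. The log2 difference was 0.23 for KO_PBS against WT_PBS (SE 0.19, 95% interval -0.20 to 0.65), 0.07 for KO_secGAA against KO_PBS (95% interval -0.35 to 0.50) and 0.30 for KO_secGAA against WT_PBS (95% interval -0.13 to 0.72). Scaling by library totals alone put the median log2 difference of all genes at 0.305, in place of 0.01, in KO_PBS against WT_PBS, where Slc30a1 then differed by 0.523 and Mtf1 by 0.314. The median was then at -0.144 in KO_secGAA against KO_PBS and at 0.155 in KO_secGAA against WT_PBS. In KO_secGAA against KO_PBS that scaling turned the difference to -0.0728 for Slc30a1 and -0.106 for Mtf1.

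**Figure D2:**
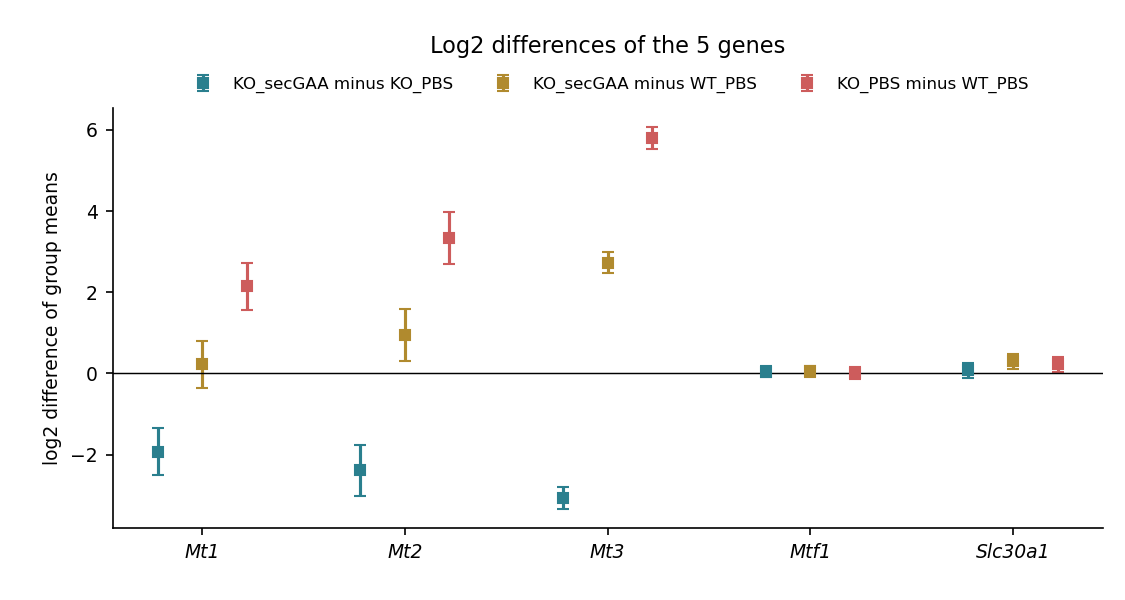
Log2 differences of group means for the 5 genes in the 3 comparisons (squares), with bars of 1 standard error from the limma fit over 9 libraries. Mt1, Mt2 and Mt3 lie above 0 for KO_PBS minus WT_PBS and below 0 for KO_secGAA minus KO_PBS, while Mtf1 and Slc30a1 lie within 0.30 of 0 in each comparison.

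In KO_PBS against WT_PBS, 3 of the 5 members had a limma adjusted p under 0.05 as higher, where 10.9% of all genes tested did, and 0 as lower, where 11.0% did. These calls describe the fits and are no test of the members. Mt2 and Mt3 passed in all 20 fits and Mt1 in 15 of 20. Mt1 did not pass in a fit of the 2 groups only or without KO_PBS 1, KO_PBS 2, WT_PBS 2 or WT_PBS 3. The groups did not overlap for 2 of the 5, Mt2 and Mt3, and for 39.7% of all genes. In KO_secGAA against KO_PBS, 0 members passed as higher, where 1.37% of all genes did, and 1, Mt3, as lower, where 2.31% did. Mt3 passed there in all 20 fits, Mt2 in 5 of 20 and Mt1 in 1 of 20. The groups did not overlap for 3 members, all lower, and for 24.0% of all genes. In KO_secGAA against WT_PBS, 1 member, Mt3, passed as higher, where 1.83% of all genes did, and 0 as lower, where 1.89% did. The groups did not overlap for Mt3 alone among the members, and for 26.9% of all genes. Because the members were chosen with these values known, nothing is read from these counts or from the calls of single members. Without scaling factors the share of changed genes that were higher was 89.6% in place of 49.9% for KO_PBS against WT_PBS. It was 10.6% in place of 37.2% for KO_secGAA against KO_PBS and 86.2% in place of 49.1% for KO_secGAA against WT_PBS. The differences of Mt1, Mt2 and Mt3 between KO_PBS and each other group kept their sign with that scaling.

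The makeup of the metallothionein transcripts also differed between both knockout groups and wild type, though the sums of KO_secGAA lay inside the range of WT_PBS. The summed normalized counts of Mt1, Mt2 and Mt3 were 83.33 ± 7.66 in KO_secGAA, 466.2 ± 185 in KO_PBS and 64.28 ± 55.6 in WT_PBS (SD, n = 3 each). Of the reads of the 3 genes, Mt3 took 19.51% (95% exact Clopper-Pearson interval 16.8 to 22.4), 9.384% (7.67 to 11.3) and 18.96% (16.8 to 21.3) in the KO_secGAA mice. These intervals cover counting error only. The share was 13.63% (13.0 to 14.3), 32.09% (30.9 to 33.3) and 35.61% (33.9 to 37.4) in the KO_PBS mice. It was 1.404% (0.919 to 2.05), 6.601% (4.08 to 10.01) and 2.676% (1.54 to 4.31) in the WT_PBS mice. As point values, the shares of all 6 knockout mice were above those of the 3 wild-type mice, though the intervals of KO_secGAA mouse 2 and WT_PBS mouse 2 overlapped, and so did the KO_secGAA and KO_PBS ranges. The ratio of Mt2 to Mt1 normalized counts was 0.749 to 1.18 in KO_secGAA, 1.11 to 1.60 in KO_PBS and 0.396 to 0.733 in WT_PBS. KO_PBS mouse 1, with the most Mt1 and Mt2 of all mice, had the lowest share of Mt3 in its group.

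**Figure D3:**
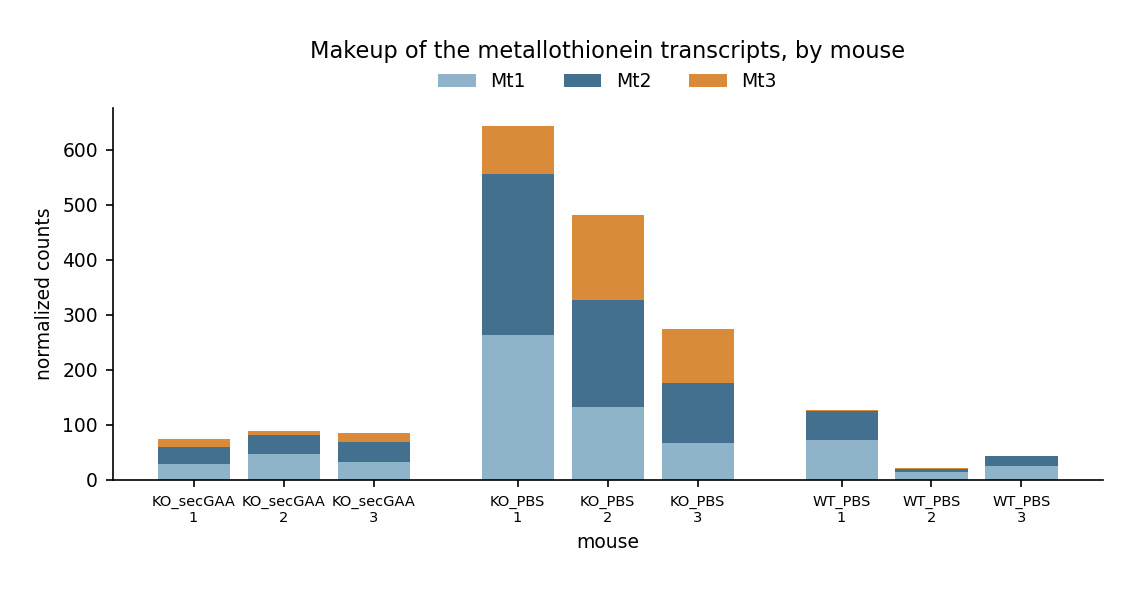
Stacked normalized counts of Mt1, Mt2 and Mt3 in each mouse, grouped as KO_secGAA, KO_PBS and WT_PBS. The sums lie at 74.78 to 89.56 in KO_secGAA, 273.6 to 643.5 in KO_PBS and 21.39 to 127.1 in WT_PBS, and the Mt3 segment is thinnest in WT_PBS.

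Levels between genes can be compared only per length. Lengths are those of all annotated exons together, which for Mt1 cover its whole span of 1246 bases and for Mt2 588 bases, so the per-length level of Mt1 would be higher with a spliced transcript. On that scale Mt2 averaged 59.06 normalized counts per kilobase in KO_secGAA, 337.5 in KO_PBS and 43.42 in WT_PBS. Mt1 was at 28.49, 124 and 29.9 in the same groups. Mt3 was at 12.29, 106.2 and 1.40, so that it was near Mt1 in KO_PBS and near Slc30a1 and Mtf1 in WT_PBS. Mtf1 and Slc30a1 were at 1.351 to 1.713 in all groups. The ranges of Mt1 and Mt2 overlapped in KO_PBS and in WT_PBS, where mouse 2 had 9.619 for Mt2 and 11.48 for Mt1, and those of Mt1 and Mt3 overlapped in KO_PBS. Within each KO_PBS mouse Mt2 was above Mt1, at 497 against 211.5, 331.1 against 106.2 and 184.3 against 54.42. Mt3 was above Mt1 in KO_PBS mice 2 and 3 and below it in mouse 1. Since the length taken for Mt1 lowers its level, no order of the metallothioneins is given within these groups. Reads of 61 bases can tell the metallothioneins from each other, since 0 stretches of that length are shared among the transcripts of Mt1, Mt2 and Mt3. Mt2 shares 38.7% of its stretches with the overlapping antisense gene Gm45774, Mtf1 7.43% with 1110065P20Rik and Slc30a1 7.8% with 1700034H15Rik. Use of strand in the counting is not given in the sources used here, so reads of these pairs cannot be told apart.

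No change passed the test in the genes around the cluster. The nearest tested genes were Bbs2, 53679 bases before Mt3, and Nup93, 34237 bases after Mt1. Together with Nudt21 and Ogfod1 before the cluster and Herpud1 and Nlrc5 after it, 0 of 6 changed in KO_PBS against WT_PBS with each of limma, edgeR and DESeq2, while for 1 the limma p before adjustment was under 0.05. Without scaling factors, where the median gene was higher by 0.305, 3 of the 6 passed as higher. Their log2 differences were between -0.24 for Ogfod1 (adjusted p = 0.101) and 0.30 for Nup93 (adjusted p = 0.211). With limma, none of the 6 changed in KO_secGAA against KO_PBS (adjusted p from 0.470 to 0.981) or in KO_secGAA against WT_PBS (adjusted p from 0.174 to 0.857).

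Other genes of zinc handling were compared by lists of known family members. Of 14 zinc importers of the Slc39a family, 11 were tested and 0 changed in any of the 3 comparisons with limma, edgeR or DESeq2. In limma, 1 had an unadjusted p under 0.05 in KO_PBS against WT_PBS, 1 in KO_secGAA against KO_PBS and 4 in KO_secGAA against WT_PBS. Without scaling factors 4 passed as higher in KO_PBS against WT_PBS. Their median log2 difference was 0.13 in KO_PBS against WT_PBS, -0.11 in KO_secGAA against KO_PBS and 0.03 in KO_secGAA against WT_PBS, beside 0.01, 0.0003 and 0.005 for all genes. The most abundant importer, Slc39a7, which releases zinc from the endoplasmic reticulum, averaged 54.43 ± 2.80 normalized counts in KO_secGAA, 61.48 ± 2.78 in KO_PBS and 61.87 ± 3.20 in WT_PBS. Of 6 tested exporters other than Slc30a1, 1 fell in KO_PBS against WT_PBS and 0 changed in the other comparisons in limma, where DESeq2 called 1 in KO_secGAA against WT_PBS. In KO_PBS against WT_PBS, DESeq2 called 2 as lower, and without scaling factors 3 passed as higher and 1 as lower. The gene that fell was Slc30a9, the most abundant of them, a zinc transporter of mitochondria. Its normalized counts were 94.3, 90.2 and 94.4 in KO_secGAA, 81.2, 75.8 and 72.2 in KO_PBS and 105.1, 119.3 and 117.1 in WT_PBS. All KO_PBS mice were below all others, and Slc30a9 fell by 0.57 on the log2 scale against WT_PBS (SE 0.08, limma adjusted p = 0.00119). KO_secGAA did not pass against KO_PBS (adjusted p = 0.0946) or WT_PBS (adjusted p = 0.0799).

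No rise passed the test among targets of Mtf1 other than the members. Of 7 such genes 6 were tested, and 0 rose in any comparison with limma, edgeR or DESeq2, while 1 had an unadjusted limma p under 0.05 as higher in KO_PBS against WT_PBS. Without scaling factors 2 passed as higher there. The only change was in Ndrg1, a gene of the hypoxia and metal response, which fell by 0.37 in KO_PBS against WT_PBS (limma adjusted p = 0.0398). That call ended without scaling factors (adjusted p = 0.736), without any 1 of the 6 KO_PBS and WT_PBS libraries and without KO_secGAA 3 (adjusted p up to 0.116). The median log2 difference of the list was -0.06, against 0.01 for all genes. Of 14 copper genes, 12 were tested and 0 changed in any comparison with limma, edgeR or DESeq2, with 2 at an unadjusted limma p under 0.05 in KO_PBS against WT_PBS and 4 higher there without scaling factors. The voom fit called 1 as higher in KO_PBS against WT_PBS, and without scaling factors 1 was lower in KO_secGAA against KO_PBS. The list had medians of -0.12 in KO_PBS against WT_PBS, -0.05 in KO_secGAA against KO_PBS and 0.02 in KO_secGAA against WT_PBS.

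Changes also passed the test in genes of iron handling. Of 15 tested, 2 rose and 3 fell in KO_PBS against WT_PBS, where 10.9% of all genes tested rose and 11.0% fell. Without scaling factors 5 of the 15 passed as higher and 2 as lower. Ftl1, the ferritin light chain that stores iron, rose by 0.86 (limma adjusted p = 0.00844), though its reads can be shared with near-identical copies. So did Slc25a37, the mitochondrial iron importer mitoferrin, by 0.92 (adjusted p = 0.00036). The transferrin receptor Tfrc fell by 1.02 on the log2 scale (adjusted p = 0.00437) and the iron exporter Slc40a1 by 0.72 (adjusted p = 0.000835). In KO_secGAA against KO_PBS, Slc40a1 rose by 0.75 (adjusted p = 0.00467), with 33.6, 35.6 and 32.8 normalized counts in KO_secGAA against 20.6, 18.1 and 21.4 in KO_PBS. Slc25a37 fell by 0.58 there (adjusted p = 0.0191), a call lost when KO_secGAA 2, KO_PBS 2 or KO_PBS 3 was left out (adjusted p up to 0.0782). Tfrc was the 1 gene that changed in KO_secGAA against WT_PBS, where it fell by 1.34 (adjusted p = 0.00680).

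**Figure D4:**
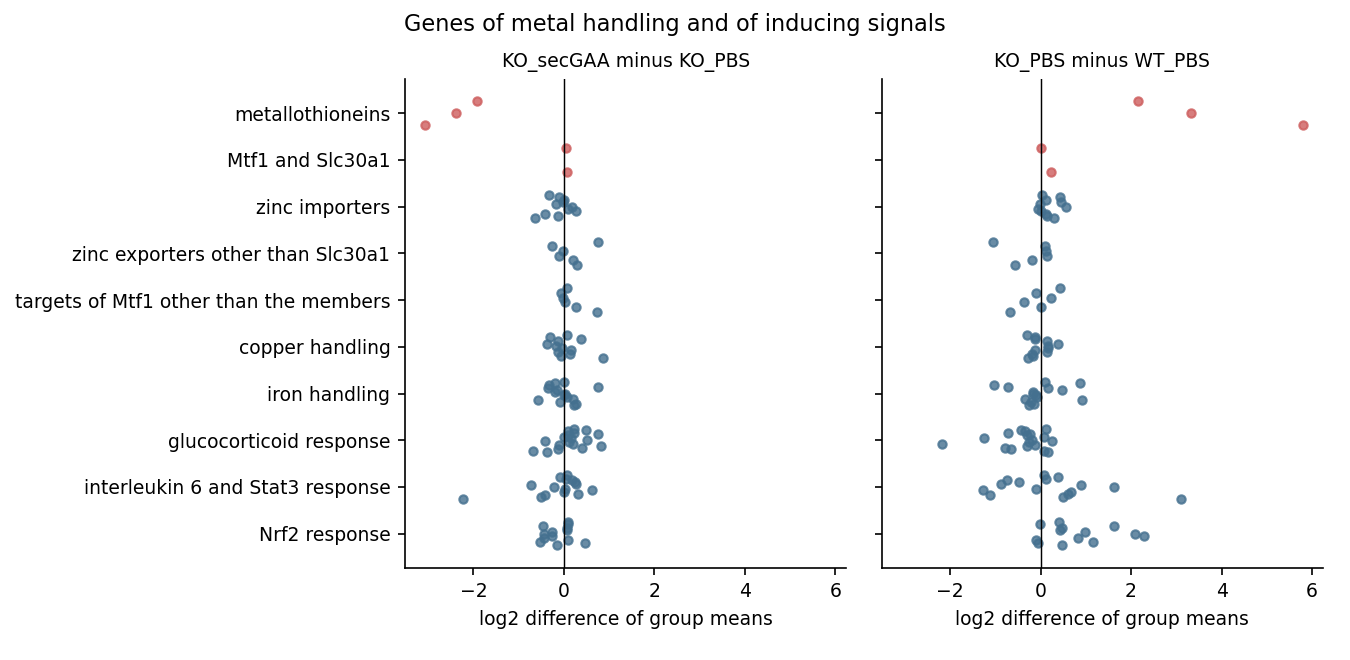
Log2 differences of the genes in each list (points, 1 per gene) for KO_secGAA minus KO_PBS on the left and KO_PBS minus WT_PBS on the right, with the 5 members in red. The metallothioneins reach from 2.15 to 5.80 on the right, beyond every gene of the zinc and copper lists.

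Glucocorticoids induce Mt1 and Mt2, and within both PBS groups the mean level of genes of that response was highest and lowest in the same mice as Mt1 and Mt2. Single genes of the list differed in this, such as Dusp1, a phosphatase gene that was highest in KO_PBS mouse 2 and lowest in WT_PBS mouse 1. The list's mean log2 level, centred on each gene's mean over 9 libraries, was -0.31, -0.01 and 0.19 in KO_secGAA mice, 0.41, -0.34 and -0.59 in KO_PBS mice and 0.80, -0.41 and 0.26 in WT_PBS mice. Within KO_PBS, mouse 1 was highest and mouse 3 lowest in this mean, in Mt1 and in Mt2. Within WT_PBS, mouse 1 was highest and mouse 2 lowest in the same 3 measures. Within KO_secGAA, mouse 1 was lowest in all 3 and mouse 3 highest in the mean and in Mt2, while mouse 2 was highest in Mt1. Mt3 did not have it in either PBS group, with its highest KO_PBS value in mouse 2 and its lowest WT_PBS value in mouse 3. By summed normalized counts this order was not particular to the glucocorticoid list. The interleukin 6 and Stat3 list summed to 682.1, 636.5 and 461.1 in KO_PBS mice and 669.5, 535.6 and 576.1 in WT_PBS mice. Sums of muscle fibre markers were also highest and lowest in these mice. By mean log2 level, neither of these lists was lowest in WT_PBS mouse 2. Without KO_PBS 1, KO_PBS exceeded WT_PBS by 1.66 for Mt1 and 2.99 for Mt2 on the log2 scale, and without WT_PBS 1 by 2.79 and 4.10. Between groups, 0 of 18 glucocorticoid genes rose in any comparison with limma, edgeR or DESeq2, with 1 at an unadjusted limma p under 0.05 as higher, in KO_secGAA against WT_PBS. Without KO_PBS 1, 3 of the 18 passed as lower in KO_PBS against WT_PBS in place of 1. Only Sgk1, a kinase gene, fell in KO_PBS against WT_PBS, by 1.25 (limma adjusted p = 0.0380). That call ended in a fit of the 2 groups only, without scaling factors and without KO_secGAA 1, KO_secGAA 2, KO_PBS 2, KO_PBS 3, WT_PBS 1 or WT_PBS 3 (adjusted p up to 0.132). The part of this signal in the metallothionein levels was not tested.

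Inflammatory signals through interleukin 6 and Stat3 are another inducer of Mt1 and Mt2. Of 15 tested genes of this path, 4 rose and 3 fell in KO_PBS against WT_PBS, where 10.9% of all genes tested rose and 11.0% fell. Without scaling factors 5 were higher and 2 lower. Timp1, a protease inhibitor, rose by 3.11 (limma adjusted p = 0.000298), the feedback inhibitor Socs3 by 1.63 (adjusted p = 0.0127), Stat3 itself by 0.88 (adjusted p = 0.000740) and the receptor subunit Il6st by 0.39 (adjusted p = 0.0126). The receptor Lifr fell by 0.75 (adjusted p = 0.000531), and the kinases Jak1, by 0.48 (adjusted p = 0.00205), and Jak2, by 0.87 (adjusted p = 0.00205). The call of Jak1 ended without scaling factors (adjusted p = 0.122). Stat3 fell by 0.72 (adjusted p = 0.0103) and Timp1 by 2.23 (adjusted p = 0.00898) in KO_secGAA against KO_PBS. Stat3 had 48.5, 40.6 and 54.5 normalized counts in KO_secGAA mice, 72.0, 84.9 and 79.5 in KO_PBS mice and 40.5, 43.2 and 43.6 in WT_PBS mice, so its KO_PBS mice were above all others, as for Mt2 and Mt3. Those of Timp1 were too. For Socs3, Il6st and Jak2, KO_PBS overlapped KO_secGAA, and for Lifr and Jak1 the KO_PBS mice were below all others. In KO_secGAA against WT_PBS, Lifr fell by 0.56 (adjusted p = 0.0125), though not without WT_PBS 3 (adjusted p = 0.0645). Jak2 fell by 0.59 (adjusted p = 0.0440), a call that ended without scaling factors (adjusted p = 0.0580), and without any 1 library other than KO_PBS 1 (adjusted p up to 0.150). The part of interleukin 6 and Stat3 in the metallothionein levels was not tested.

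Oxidants act through Nrf2, the factor that binds antioxidant response elements. Of 13 tested genes of its response, 7 rose and 0 fell in KO_PBS against WT_PBS, where 10.9% of all genes tested rose and 11.0% fell. The list's median log2 difference was 0.48 beside 0.01 for all genes. The count of risen list genes was 6 without KO_PBS 1, 10 without WT_PBS 1 and 11 without scaling factors. Thioredoxin, Txn1, rose by 1.16 (limma adjusted p = 6e-05), the quinone reductase Nqo1 by 1.63 (adjusted p = 0.000349), thioredoxin reductase, Txnrd1, by 0.98 (adjusted p = 0.000988) and the sulfiredoxin Srxn1 by 2.09 (adjusted p = 0.00172). In KO_secGAA against WT_PBS, where 1.83% of all genes tested rose and 1.89% fell, 6 of the 13 rose and 0 fell, with a median of 0.50. That count was 0 without WT_PBS 3 and 2 without KO_secGAA 1, KO_secGAA 2 or WT_PBS 2. Txn1 rose by 0.63 (adjusted p = 0.00985) and Nqo1 by 1.16 (adjusted p = 0.0118), and both calls ended without WT_PBS 3 (adjusted p = 0.0545 for each). Txnrd1 rose by 0.72 (adjusted p = 0.0209), a call that ended without KO_secGAA 1, KO_secGAA 2, WT_PBS 2 or WT_PBS 3 (adjusted p up to 0.0938). Nfe2l2, the gene of Nrf2, rose by 0.50 (adjusted p = 0.0227), a call that ended without any 1 of the KO_secGAA or WT_PBS libraries (adjusted p up to 0.0835). Only Txn1 changed in KO_secGAA against KO_PBS, falling by 0.53 (adjusted p = 0.0184), and that call ended without KO_PBS 1, KO_secGAA 1 or KO_secGAA 3 (adjusted p up to 0.0634). Nqo1 had 48.0, 48.2 and 47.8 normalized counts in KO_secGAA, 57.0, 63.5 and 81.9 in KO_PBS and 27.3, 16.0 and 21.9 in WT_PBS. Its KO_secGAA mice thus lay between the other groups, as those of Mt3 and Txn1 did, though Nqo1 did not pass in KO_secGAA against KO_PBS (limma adjusted p = 0.201). For Srxn1, Txnrd1 and Nfe2l2, KO_secGAA and KO_PBS overlapped. The part of the Nrf2 response in the metallothionein levels was not tested.

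The genes most like Mt3 over the 9 libraries, by Pearson correlation of log2 values among 8884 genes with a mean of at least 5 normalized counts, were not metallothioneins. They were Panx1 (r = 0.997), a channel of the plasma membrane, the tetraspanin Cd151 (r = 0.994), the annexin Anxa4 (r = 0.994), the major vault protein Mvp (r = 0.991), Tmbim1 (r = 0.990) and the histone-binding Rbbp4 (r = 0.990). Mt2 ranked 579th (r = 0.849) and Mt1 1192nd (r = 0.721). These 9 points share their libraries and fall into 3 groups, so the values are a description with no p. Panx1 had 20.5, 18.1 and 20.2 normalized counts in KO_secGAA, 37.5, 46.1 and 43.0 in KO_PBS and 10.2, 10.6 and 10.3 in WT_PBS. As for Mt3, its groups were separate and KO_secGAA lay in between. Anxa4 had 47.0, 40.4 and 44.8 in KO_secGAA, 96.5, 97.4 and 94.2 in KO_PBS and 20.4, 18.6 and 19.8 in WT_PBS.

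The gene most like Mt1 was Mt2 (r = 0.957). It was followed by Cdipt (r = 0.956), which makes phosphatidylinositol, Gpr108 (r = 0.954), Sfr1 (r = 0.943), Tmed2 (r = 0.941), of transport between the endoplasmic reticulum and the Golgi, and the fucosidase Fuca2 (r = 0.937). Mt3 ranked 532nd (r = 0.721), with Mtf1 at r = 0.375 and Slc30a1 at r = -0.159. Cdipt had 38.9, 39.8 and 39.6 normalized counts in KO_secGAA, 51.2, 48.1 and 42.1 in KO_PBS and 43.8, 32.9 and 33.1 in WT_PBS. It shared with Mt1 an overlap of KO_PBS and WT_PBS that came from WT_PBS mouse 1 and KO_PBS mouse 3.

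Markers of other cell types were summed in each library. Beside their calls in KO_PBS against WT_PBS, 10.9% of all genes tested rose and 11.0% fell. The summed level of 10 macrophage markers was 101.6 to 211.1 in KO_secGAA, 179.0 to 261.9 in KO_PBS and 70.8 to 116.8 in WT_PBS, and 3 of 10 rose in KO_PBS against WT_PBS (Cd68, Mpeg1 and Lyz2; limma adjusted p up to 0.00682), with 6 of 10 higher without scaling factors. Schwann cell and neural markers, which bear on the known site of Mt3 in the nervous system, summed to 33.3 to 41.8 in KO_secGAA, 33.2 to 41.2 in KO_PBS and 53.0 to 100.2 in WT_PBS. The sum was lower in both knockout groups, where Mt3 was higher. Of 7 tested, 0 rose and 2 fell in KO_PBS against WT_PBS, Aldh1l1 and Aqp4, which fast muscle fibres also express. The other 4 of the 11 neural markers, Gfap, Ngfr, Tubb3 and Snap25, were not used here. Satellite cell markers summed to 115.8 to 137.4 in KO_secGAA, 143.7 to 158.2 in KO_PBS and 105.9 to 118.4 in WT_PBS, with 2 of 5 tested risen in KO_PBS against WT_PBS and 0 to 2 with 1 library left out, the least without WT_PBS 3, and 4 without scaling factors. Fibroblast markers summed to 515.3 to 645.0, 582.1 to 920.2 and 521.7 to 627.8 in the same groups, with 1 of 8 risen and 1 to 5 with 1 library left out, the most without KO_PBS 1, and 4 without scaling factors. Endothelial markers summed to 159.0 to 187.8, 108.6 to 156.8 and 166.8 to 201.6, with 4 of 8 fallen, 1 to 4 with 1 library left out and 0 without scaling factors. Fat cell markers summed to 334.8 to 957.3, 219.6 to 445.5 and 326.9 to 1454, with 0 of 7 changed in KO_PBS against WT_PBS and WT_PBS mouse 1 the highest. In KO_secGAA against KO_PBS, 2.31% of all genes tested fell and 1.37% rose. There 1 of 10 macrophage, 2 of 8 fibroblast and 1 of 5 satellite cell markers fell and 1 of 7 fat cell markers rose. With 1 library left out these counts were 0 to 1, 1 to 3, 0 to 1 and 0 to 1. WT_PBS mouse 1 was also the highest of its group in Mt1 and Mt2. The part of macrophages, satellite cells and the other cell types in the metallothionein levels was not tested.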

How the data were processed

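RNA of quadriceps muscle was sequenced in 9 mice, 1 library each, in groups taken from the genotype and treatment labels. Per the labels' protocols, Trizol and columns gave the RNA, polyadenylated molecules were used, the NEBNext Ultra RNA kit gave the libraries, and a HiSeq2500 read single ends of 61 bp. CASAVA, cutadapt, RSEM, limma, edgeR and GRCm38 are named in the submitters' processing notes, their roles and versions not being given in the sources used here.

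The deposited table holds a normalized signal, which the authors call normalized counts, with 13116 genes. All 118044 values (100%) were whole reads plus 0.5, scaled per 1e+06 by library size and TMM factor, within a relative tolerance of 1e-06. TMM factors rebuilt with edgeR 4.0.16 gave the deposited values with a largest relative difference of 5.11e-15. Values that are not counts call for a test on the log scale, so limma 3.58.1 (R 4.3.3), with a mean-variance trend, group means and 6 residual degrees of freedom, was fitted to log2(value + 0.5) of all 9 libraries. A filter asked for a value of 1 in 3 libraries, which kept 13089 genes and removed 27. P-values were adjusted by Benjamini-Hochberg over all of these, and rose, fell or changed is written of a gene with an adjusted p under 0.05. The edgeR quasi-likelihood test, DESeq2 1.42.0 and voom on the recovered reads were alternatives, beside other pseudocounts, filters and scalings and each library left out in turn.

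The members and gene lists were chosen with earlier results of these data known. Besides the members, the text names up to 4 changed genes per list and comparison by smallest p, the most abundant zinc importer and exporter, the 6 genes most correlated with Mt3 and with Mt1, and the 3 nearest tested genes on each side of the cluster. Socs3, Il6st, Jak2 in KO_PBS against WT_PBS and marker genes complete short counts and were chosen after their values were seen. Dusp1 was also named after its values were seen. Positions are from GENCODE M21 (GRCm38), and promoter windows from RefSeq (GRCm38.p6), where all 5 members matched. The scripts were tested on simulated data. Proteins were not analysed here, and 1 gene counted in the iron list is not reported here.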

Additional observations from a re-analysis of the deposited data

How the results depend on the processing

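The differences of the members were recomputed under 19 alternatives, 9 of which leave out 1 library. For KO_PBS against WT_PBS, Mt3 differed by 6.26 with edgeR, 6.26 with DESeq2 and 6.21 with voom, in place of 5.80, and without scaling factors Mtf1 by 0.314 and Slc30a1 by 0.523. For KO_secGAA against WT_PBS, Mt3 differed by 3.15 with both edgeR and DESeq2, in place of 2.73. With 1 library left out, KO_PBS exceeded WT_PBS by 1.63 to 2.79 for Mt1, 2.54 to 4.10 for Mt2 and 5.55 to 5.96 for Mt3, and KO_secGAA differed from KO_PBS by -2.41 to -1.44, -2.77 to -2.05 and -3.25 to -2.79. KO_secGAA differed from WT_PBS by -0.291 to 0.86 for Mt1, 0.155 to 1.71 for Mt2 and 2.55 to 3.01 for Mt3. The number of changed genes was 2867 for KO_PBS against WT_PBS, 481 for KO_secGAA against KO_PBS and 487 for KO_secGAA against WT_PBS. Without scaling factors these counts were 4984, 959 and 1007. DESeq2 gave 798 and 1022 for the comparisons of KO_secGAA with KO_PBS and WT_PBS, and a fit of the 2 groups only 316 for KO_secGAA against KO_PBS. With 1 library left out the counts were 1744 to 2847, 159 to 568 and 94 to 503. Of 27 calls of named list genes, 16 held under all 19 alternatives and 11 were lost under at least 1. The cause of these shifts was not tested. No paired analysis was possible because the labels give the groups no shared replicate numbers. At these depths Mt3 rests on 16 to 26 reads in each WT_PBS library, so its folds against WT_PBS depend on the pseudocount.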
